A study of Mus musculus with 4 samples.

Results

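Cingulin (Cgn), claudin 13 (Cldn13) and 6 further genes of a tight junction list were followed in MEL cells before and after DMSO induction. The 6 were Tjp1, Tjp3, F11r, Ocln, Marveld1 and Marveld2. All 8 were taken by gene symbol from an expression table of 47935 loci, and each had 1 locus of its own there. They were chosen by their FPKM values and their change with induction in these same samples. The levels and changes given below therefore describe them. The adjusted p-values of those tested are their places in a fit over the whole table and not independent evidence. MEL cells are a mouse erythroleukemia line, arrested early in the erythroid lineage, that takes up erythroid-like differentiation in dimethyl sulfoxide (DMSO). RNA depleted of ribosomal RNA was sequenced from 2 uninduced samples and 2 samples induced with 1.5% DMSO, all of the same line and in the same serum-containing medium. The time in DMSO is not stated in the labels, and the labels do not say whether the replicates were separate cultures, so every p-value here reflects how much the 4 samples scatter, and that scatter may be technical only.

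Tight junctions seal the space between neighbouring epithelial or endothelial cells. Their membrane strands are built from claudins and from MARVEL-domain proteins such as occludin, with immunoglobulin-type adhesion molecules beside them, and a cytoplasmic plaque of zonula occludens (ZO) scaffolds and cingulin ties the strands to actin, myosin and regulators of small GTPases. Blood cells in suspension form no such seal, yet some of these proteins are known outside epithelia: JAM-A, the product of F11r, is found on platelets and leukocytes, and claudin 13 was described in mouse erythroid cells.

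Levels are in FPKM, fragments scaled for transcript length and library total, summing to between 1055861 and 1325806 per sample. Depth was not given. In 166 to 473 loci per sample with 1 exon and 800 to 1200 bases, low values multiplied by length piled up between 40 and 44 in uninduced replicate 2, between 48 and 52 in uninduced replicate 1, between 60 and 64 in induced replicate 1 and between 68 and 72 in induced replicate 2, which is taken here as the worth of about 1 fragment. Induced replicate 2 listed 2841 loci above 0 that were at 0 in the other 3 samples, against 423 to 846 in those. The table-wide test was limma-trend on log2(FPKM + 1), a scale that understates changes of low genes. It covered 12890 loci that reached 1 FPKM in 2 or more samples, called at a Benjamini-Hochberg adjusted p under 0.05; log2 changes are induced minus uninduced on that scale, ± SE. It called 3377 loci, 26.2% of those tested.

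Promoter sequence is shown for Cgn and F11r, members that rose and have an entry in the RefSeq promoter table (GRCm38.p6), because promoters of erythroid genes often hold GATA and CACCC-type elements. Of the 8 genes 7 had an entry, 10 entries in all; Cldn13 had none. Bases upstream of the start are given 5′ to 3′ on the gene's strand, up to the first base that GENCODE or the deposited table assigns to the gene. The Cgn stretch is chr3:94786493-94786732 (minus strand) and the F11r stretch is chr1:171437311-171437528 (plus strand). Capitals mark matches to CCNCNCCC, a CACCC or GC-box type pattern, on either strand (GGGNGNGG on the other), overlapping matches included.
Cgn: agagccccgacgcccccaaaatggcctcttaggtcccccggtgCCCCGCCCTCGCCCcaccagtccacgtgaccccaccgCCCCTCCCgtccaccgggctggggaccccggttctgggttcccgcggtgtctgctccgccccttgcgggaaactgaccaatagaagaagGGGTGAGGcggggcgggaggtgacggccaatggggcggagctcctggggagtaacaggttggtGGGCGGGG
F11r: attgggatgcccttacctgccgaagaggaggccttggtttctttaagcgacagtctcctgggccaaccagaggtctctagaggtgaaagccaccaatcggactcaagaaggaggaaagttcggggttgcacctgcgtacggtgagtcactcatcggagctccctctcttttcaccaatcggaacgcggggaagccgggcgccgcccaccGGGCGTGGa
Cgn had 5 matches in its 250 bases upstream and F11r had 1. Members not called higher or not tested had them too: 5 in Tjp1, 3 and 2 in the 2 Ocln entries, 2 in Marveld1, 2 in each Marveld2 entry, and 1 and 0 in the Tjp3 entries. Of all promoters, 45.9% of the 32841 searched had at least 1. The Cgn window held 70.4% G and C, above 91.7% of promoters, and the F11r window 60%, above 72.1%.

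The core motif of GATA factors, GATAA, searched on both strands and so read as TTATC on the other, was in neither the Cgn nor the F11r window. It was in 22.6% of promoters. Members whose windows held it included Tjp3, which did not pass the test, and Marveld2, which was not measurable. Their sites are shown with up to 12 bases on either side and the match in capitals.
Tjp3, chr10:81291813-81291831: ctGATAAaagctgagatct
Tjp3, chr10:81291636-81291664: gccaatagagtaGATAAtgatcttgggtg
Marveld2, chr13:100617136-100617164: atcttgttcttcTTATCctttaacattac
All are on the minus strand of GRCm38.p6. The Tjp3 sites lie 248 and 71 bases upstream of the outer of 2 Tjp3 starts. The window of the inner start, where the Tjp3 locus in the table begins (81291267), had no GATAA. The Ocln and Marveld1 windows had no GATAA. A match says only that the letters are there.

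Of the 8 members, 5 were measured at 1 FPKM or more in all 4 samples, and the remaining 3 reached 1 FPKM in no sample. Cgn, Cldn13, F11r, Marveld1 and Tjp3 were the measured ones, and Ocln, Tjp1 and Marveld2 were not. The lowest value among the former was 1.57 FPKM (Tjp3) and the highest among the latter 0.38 FPKM (Ocln). Of all loci 22.2% reached 1 FPKM in all 4 samples. Since the 5 passed in both groups, none entered the test through its induced level alone. Cgn, Cldn13 and F11r rose after induction, and Marveld1 and Tjp3 did not pass the test. This is 3 of 5 tested members called higher, where 11.5% of all loci tested were called higher, and 0 called lower in limma (0 also at an unadjusted p under 0.05), where 14.7% were; nothing is read from these shares, because the choice of genes used the same comparison. All members were measured in bulk RNA, so more cells with a transcript and more transcript per cell cannot be told apart.

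**Figure D1:**
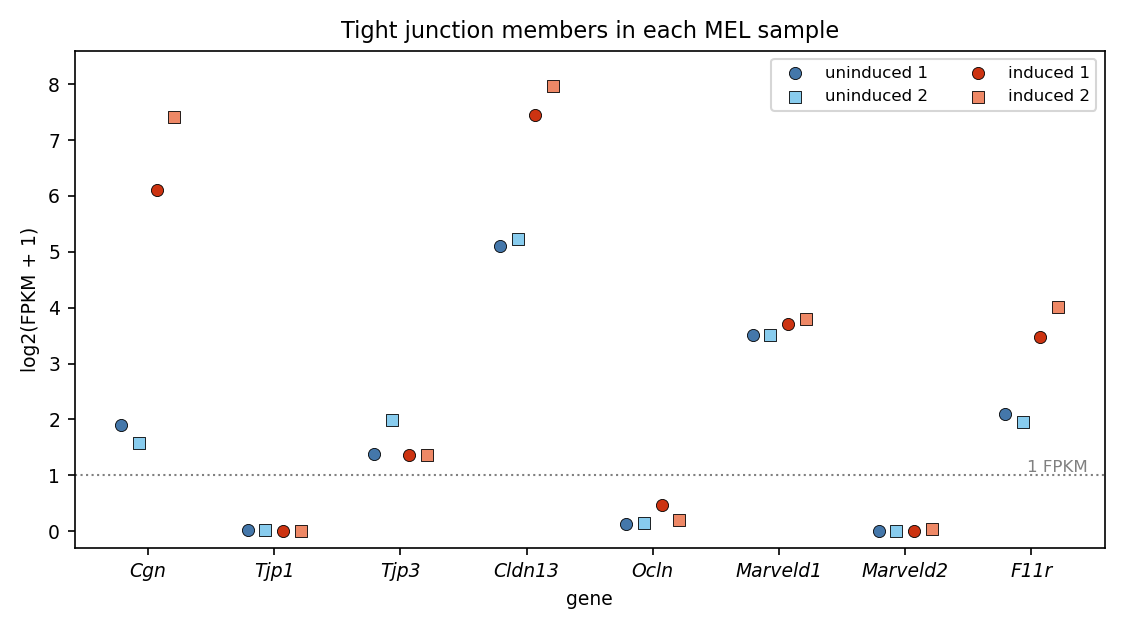
Level of each member as log2(FPKM + 1) in each of the 4 MEL samples, 1 symbol per sample, with the dotted line at 1 FPKM. Cgn, Cldn13, F11r, Marveld1 and, at low levels, Ocln have both induced samples above both uninduced samples. Tjp1, Ocln and Marveld2 lie under the line in every sample.

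Cgn encodes cingulin, the coiled-coil plaque protein that binds ZO proteins and the exchange factor GEF-H1. The gene lies on chromosome 3, 94760069 to 94786492 (GRCm38, GENCODE M21), with up to 21 exons and 4 transcripts, and its locus in the table has the same ends. It was at 2.73 and 1.97 FPKM in uninduced replicates 1 and 2 and at 68.01 and 169.39 FPKM in induced replicates 1 and 2. The groups were far apart, and within the induced pair replicate 2 stood well above replicate 1. The log2 change was 5.03 ± 0.46 (limma adjusted p = 0.0106, 95% interval 3.85 to 6.20), and mean FPKM rose from 2.35 ± 0.54 to 119 ± 71.7 (SD, n = 2 each), a ratio of 50.5. Only 9 of the 12890 loci tested had a larger log2 change. In the uninduced cells its level was above 19.2% of the tested loci, and in the induced cells above 93.6%.

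Cldn13 encodes claudin 13, a claudin that mice have and humans lack. It is a short gene of 2 exons and 1 transcript on chromosome 5, 134914249 to 134915526. It was already well expressed in uninduced cells, at 33.51 and 36.73 FPKM, and stood at 174.56 and 248.29 FPKM in induced cells. Both pairs were tight beside the distance between them. The log2 change was 2.54 ± 0.24 (limma adjusted p = 0.0106, 95% interval 1.92 to 3.15), and the ratio of mean FPKM was 6.02. In both states it was the most abundant of the 8 genes per length of transcript. The log2 change of Cgn was larger than that of Cldn13, with 95% intervals that do not overlap; the difference itself was not tested.

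F11r encodes the junctional adhesion molecule JAM-A, a cell surface protein that binds ZO-1 through its tail. It lies on chromosome 1, 171437535 to 171464603. It was at 3.29 and 2.85 FPKM in uninduced and at 10.08 and 15.15 FPKM in induced samples. The induced values were several units above the uninduced ones and did not overlap them. The log2 change was 1.72 ± 0.27 (limma adjusted p = 0.0178, 95% interval 1.04 to 2.40), with a ratio of mean FPKM of 4.11.

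With any 1 sample left out the log2 changes were 4.37 to 5.68 for Cgn, 2.28 to 2.79 for Cldn13 and 1.45 to 1.99 for F11r. Their sign could not turn, because for each gene both induced samples lay above both uninduced samples. Without either uninduced replicate 0 of the 12890 loci were called higher in limma (2488 and 1920 at an unadjusted p under 0.05), so a missed threshold there says nothing about these genes in particular. With a single sample left out, and the lone sample of that group assumed to vary like the other group, the adjusted p of Cgn was 0.0652 when uninduced replicate 1 was dropped and 0.0831 when uninduced replicate 2 was, and it passed at 0.0231 without induced replicate 1 and 0.0435 without induced replicate 2. Cldn13 missed the threshold at 0.0652, 0.0831 and 0.0678 without uninduced replicates 1 and 2 and induced replicate 2, and passed at 0.041 without induced replicate 1. F11r missed it in all 4 cases, at 0.0553 to 0.108. With no filter on low loci the 3 genes stood at 0.143 to 0.194.

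Marveld1 encodes a MARVEL-domain membrane protein of the wider family of occludin, and lies on chromosome 19, 42147400 to 42151703. It was at 10.38 and 10.39 FPKM in uninduced and at 12.01 and 12.92 FPKM in induced samples. The induced samples were a little higher and the groups did not overlap, as for 36.1% of all tested loci in that direction. The log2 change of 0.24 ± 0.19 did not pass (limma adjusted p = 0.379), with a 95% interval of -0.25 to 0.73.

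Tjp3 encodes ZO-3, the smallest of the ZO scaffolds and one found mainly in epithelia. It lies on chromosome 10, 81273207 to 81291581, and its locus in the table covers 81268172 to 81291267 with 1 reference transcript. It was at 1.60 and 2.98 FPKM in uninduced and at 1.58 and 1.57 FPKM in induced samples. Uninduced replicate 2 stood alone, and the remaining 3 samples were nearly equal. The log2 change of -0.32 ± 0.27 did not pass (limma adjusted p = 0.412), and it was -0.01 without uninduced replicate 2. The end of the annotated gene overlaps 40 bases of Apba3 on the other strand, and the sources used here do not state whether strand was kept. The locus in the table runs further, past the gene's end at 81273207 to 81268172. Whether reads from outside Tjp3 entered these low values was not tested.

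Ocln encodes occludin, the founding MARVEL-domain protein of the junction, on chromosome 13, 100496507 to 100552718. It was at 0.09, 0.11, 0.38 and 0.15 FPKM in uninduced 1, uninduced 2, induced 1 and induced 2. Both induced values were higher, at levels too low to enter the test. Marveld2 encodes tricellulin, which marks the corners where 3 cells meet, and lies beside Ocln at 100595957 to 100616971. It was listed at 0 in the first 3 of these samples and at 0.03 FPKM in induced replicate 2, the library with the most loci above 0 alone. Tjp1 encodes ZO-1, the main scaffold that binds claudins and cingulin, on chromosome 7, 65296165 to 65527781. It was at 0.01 FPKM in both uninduced samples and listed at 0 in both induced samples. Multiplied by the longest transcript, these values come to 70.5 for Tjp1 and 93.3 for Marveld2, about 1 or 2 fragments on the scale given above, so neither level can be told from 0. The deposited Tjp1 locus ends at 65371239 and leaves out the more distant starts of that gene. An exact 0 in such a table can also be a failed estimate.

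In uninduced cells Cldn13 was highest, followed by Marveld1, then F11r, Cgn and Tjp3, then Ocln, Tjp1 and Marveld2. Cgn and Tjp3 overlapped, as did F11r and Tjp3, so the order of these neighbours was not fixed by the samples. In induced cells Cldn13 was again highest, Cgn was second, and F11r and Marveld1 overlapped. The lower Cldn13 sample (174.56 FPKM, induced replicate 1) was only just above the higher Cgn sample (169.39 FPKM, induced replicate 2). Within induced replicate 1 Cldn13 was at 174.56 and Cgn at 68.01 FPKM, and within induced replicate 2 at 248.29 and 169.39 FPKM. The 8 genes summed to 51.6 and 55.0 FPKM in uninduced and to 267 and 448 FPKM in induced samples.

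**Figure D2:**
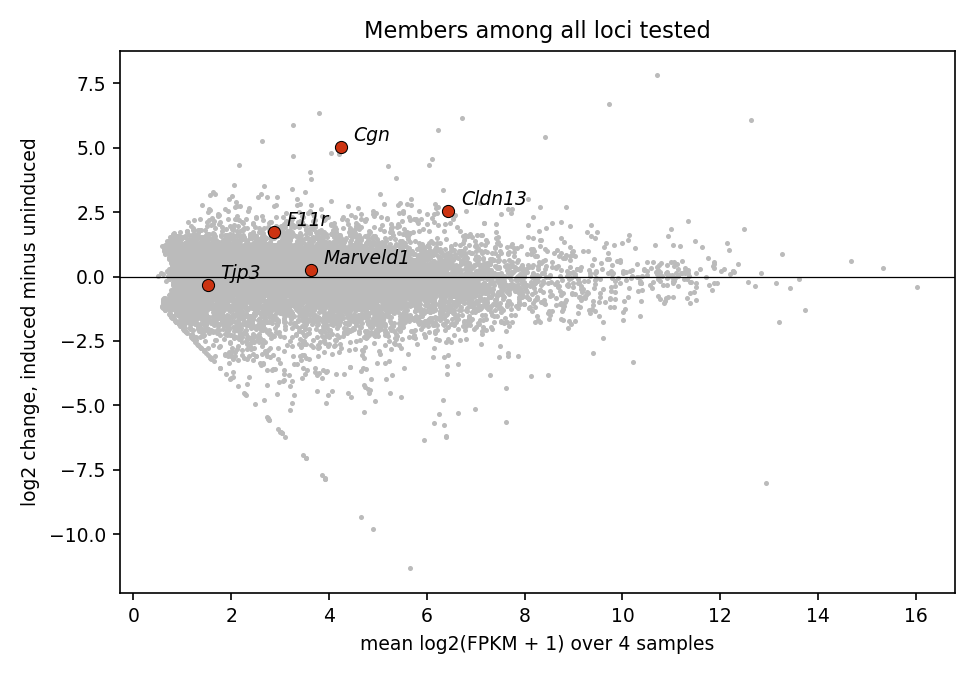
Log2 change, induced minus uninduced, against mean log2(FPKM + 1) for the 12890 loci tested (grey) and the 5 tested members (red). Cgn (5.03) and Cldn13 (2.54) lie at the upper edge, F11r (1.72) above most loci, and Marveld1 (0.24) and Tjp3 (-0.32) near 0.

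The genes whose profile over the 4 samples was nearest to that of Cgn, by Euclidean distance between centred log2(FPKM + 1) values among 8605 protein-coding loci, included Rab3il1 (0.57), Alas2 (0.75), Hba-a2 (0.89) and Apol11b (0.99). Rab3il1, a Rab exchange factor, went from 2.51 and 2.52 to 74.41 and 119.64 FPKM. Alas2, the erythroid enzyme that starts heme synthesis, went from 42.23 and 63.84 to 1490 and 3339 FPKM. Hba-a2 is an alpha-globin gene. Apol11b entered the test through its induced samples alone (0.27 and 0.23 against 57.70 and 90.38 FPKM). Nearest to Cldn13 were Dhrs11 (0.06), Hebp1 (0.19), Tmod1 (0.19), Fads3 (0.21) and Ranbp10 (0.22). Hebp1 is a heme-binding protein, and Tmod1 caps the actin filaments of the red cell membrane skeleton. Dhrs11, a dehydrogenase, went from 16.64 and 17.99 to 85.16 and 120.09 FPKM. The values were centred but not scaled, so a gene near Cgn had to rise by a similar amount. Only 9 of the loci tested had a larger log2 change than Cgn. Its nearest profile was 0.57 away, against 0.06 for Cldn13. Over 4 samples in 2 groups nearness is a description.

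Claudins other than Cldn13 were mostly not measurable. Of 30 symbols in a list of the family and 2 claudin-domain relatives, 24 had a locus of their own, 21 of these stayed below 1 FPKM in every sample and 6 were listed at 0 throughout. Cldn3, Cldn12 and Cldnd1 were tested. Cldn3, a common epithelial claudin, went down, from 26.37 and 23.28 to 9.42 and 8.22 FPKM (log2 change -1.40 ± 0.20, limma adjusted p = 0.0158). It passed under all 3 other scalings, and missed the threshold with any 1 sample left out (0.0668 to 0.109). Cldn12 was at 4.37 and 6.94 FPKM uninduced and at 4.97 and 5.10 FPKM induced, and Cldnd1 at 9.72 and 9.12 against 10.98 and 11 FPKM. Neither passed.

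Cldn3 and Cldn4 lie in the same stretch of chromosome 5 as Cldn13. The start of Cldn4 is 31.4 kb and that of Cldn3 70.7 kb from the start of Cldn13. Cldn4 was at 0.03, 0.03, 0.11 and 0.14 FPKM and was not tested. Mettl27 (Wbscr27 in the table), between Cldn13 and Cldn4, was at 3.58 and 6.92 FPKM uninduced and at 7.14 and 10.78 FPKM induced and did not pass (log2 change 0.70 ± 0.36, limma adjusted p = 0.196). Tmem270 (Wbscr28), on the other side, was listed at 0 in all samples but induced replicate 2 (0.08 FPKM). Along this stretch Cldn13 rose, Cldn3 fell, and Cldn4 between them stayed near 0. The Cldn3 locus in the table runs to 135001350, past the end of the gene at 134987472.

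**Figure D3:**
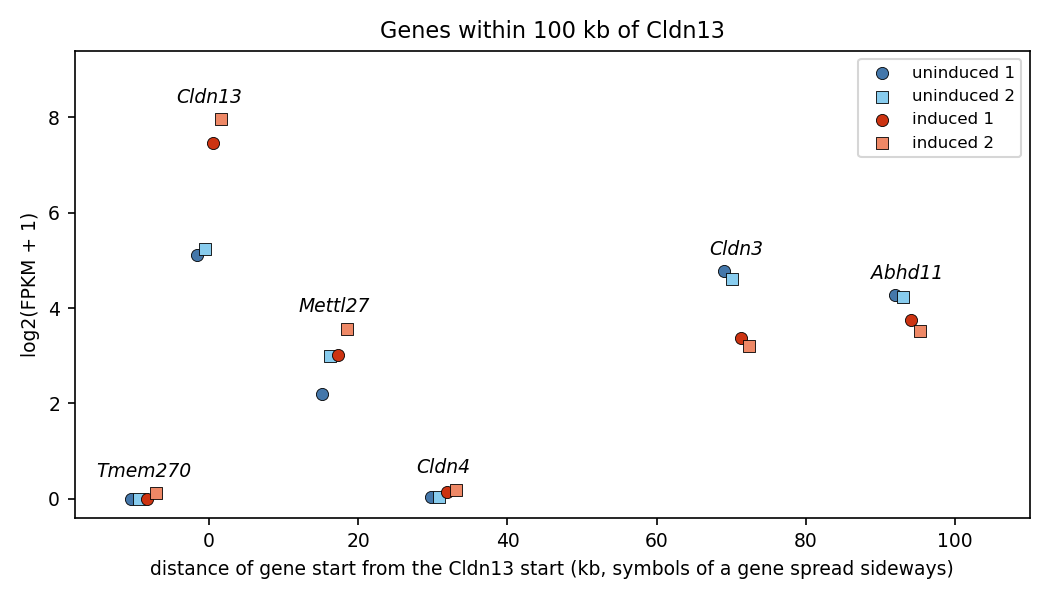
Level as log2(FPKM + 1) of the protein-coding genes within 100 kb of Cldn13, by the distance of each start from that of Cldn13 in kb, 1 symbol per sample. Cldn13 is higher in both induced samples, Cldn3 is lower in both, and Cldn4 and Tmem270 lie near 0.

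The 2 nearest named protein-coding genes on each side of the members came to 28 genes other than members, of which 23 had a locus of their own and 15 were tested. Of these 1 rose and 2 fell, beside 11.5% and 14.7% of all loci. Tuft1, 101.2 kb from Cgn, rose from 7.89 and 8.77 to 20.08 and 40.83 FPKM (log2 change 1.67 ± 0.36, limma adjusted p = 0.0318). The nearer neighbours of Cgn were Selenbp2, at 114.14 and 102.31 FPKM against 89.85 and 78.97 FPKM, and Pogz, at 7.90 and 6.42 against 10.68 and 10.08 FPKM, and neither passed. Alyref2, 38.9 kb from F11r, fell from 4.37 and 3.68 to 0.81 and 1.03 FPKM (adjusted p = 0.0177), and Cactin, 29.5 kb from Tjp3, fell from 20.76 and 19.40 to 9.93 and 8.30 FPKM (adjusted p = 0.0242). Rad17, whose nearer end is 0.2 kb from the low gene Marveld2, was at 8.79 to 13.51 FPKM in the 4 samples.

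Other junction genes came from 5 lists written from general knowledge of these structures, 117 symbols with older names included, of which 95 had a locus of their own and 39 were tested. Of the 39, 5 rose and 3 fell, against 11.5% and 14.7% of all loci, and their median log2 change was 0.18 against 0.03 over all loci tested. Both induced samples were above both uninduced samples for 17 and below for 9 of the 39; over all loci these shares were 36.1% and 34.7%. The number of calls moved with the settings, from 1 to 8 higher and from 1 to 4 lower with all samples kept.

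Among plaque, polarity and signalling genes 3 of 13 tested rose and 1 fell, beside 11.5% and 14.7% of all loci. Their median log2 change was 0.08. Rab13, a small GTPase of junction traffic, went from 3.73 and 4.91 to 12.65 and 18.65 FPKM (log2 change 1.63 ± 0.27, limma adjusted p = 0.0198). Mpp5, the polarity scaffold PALS1, went from 4.59 and 2.33 to 10.51 and 8.09 FPKM (adjusted p = 0.0474), and the kinase gene Wnk4 from 0.37 and 0.91 to 2.70 and 1.99 FPKM (adjusted p = 0.0442), entering the test through its induced samples alone. Cdk4, a cell cycle kinase that binds the ZO-1 partner ZONAB, fell from 253.57 and 254.29 to 138.04 and 113.59 FPKM (adjusted p = 0.0276). Sympk, better known in RNA 3′ end processing, was next highest, at 42.89 and 51.15 FPKM uninduced and at 29.30 and 35.25 FPKM induced, and did not pass. Rab13 passed under the 3 other scalings. Mpp5 missed the threshold under 2 of them (0.0522 and 0.0574), Wnk4 under median-of-ratios scaling (0.0547) and Cdk4 under quantile normalization (0.0526). Cgnl1, the paracingulin gene and close relative of Cgn, was at 1.23 and 0.76 against 1.84 and 1.70 FPKM and did not pass; it was picked out with its values known.

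Other transmembrane junction genes had 0 of 11 symbols tested. Cxadr was highest, at 0.33 to 1.09 FPKM, followed by Lsr at 0.25 to 0.85 FPKM. The relatives of F11r, Jam2 and Jam3, were at 0.14 FPKM or less, and Clmp, Ildr1 and Ildr2 were listed at 0 in all samples. Jam2 and Jam3 were picked out with their values known.

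GTPase regulators, myosins and further partners of cingulin had 16 genes tested. Of these 1 rose and 1 fell, beside 11.5% and 14.7% of all loci. Arhgef2, which encodes the cingulin partner GEF-H1, fell from 28.71 and 22.99 to 11 and 13.81 FPKM (log2 change -1.0 ± 0.23, limma adjusted p = 0.0347), and did not pass when scaled without globins and the 10 most abundant loci (0.0572). Arhgef11, another GTPase exchange factor, rose from 2.22 and 1.09 to 4.44 and 4.53 FPKM (adjusted p = 0.0462), and missed the threshold under the same scaling (0.053). Myl6, a myosin light chain, was highest, at 335.82 and 425.48 against 659.69 and 696.70 FPKM (adjusted p = 0.0566); it passed under quantile normalization (0.0295), without globins and the 10 most abundant loci (0.0446) and with the replicate number as a block (0.0468). Cdc42 was at 178.60 and 130.79 against 186.06 and 211.92 FPKM and did not pass.

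Adherens junction genes had 1 of 7 tested that rose and 0 that fell in limma (0 also at an unadjusted p under 0.05). Over all loci these shares were 11.5% and 14.7%. Ctnna1, alpha-catenin, which links cadherins to actin, rose from 36.08 and 36.35 to 56.91 and 75.51 FPKM (log2 change 0.84 ± 0.22, limma adjusted p = 0.0461; 0.0502 with a pseudocount of 0.1). Actn4 was at 33.56 and 48.12 against 28.84 and 43.12 FPKM. With any 1 sample left out, none of the 39 other junction genes passed in limma, while 3 to 9 of the 39 were higher and 3 or 4 lower at an unadjusted p under 0.05.

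**Figure D4:**
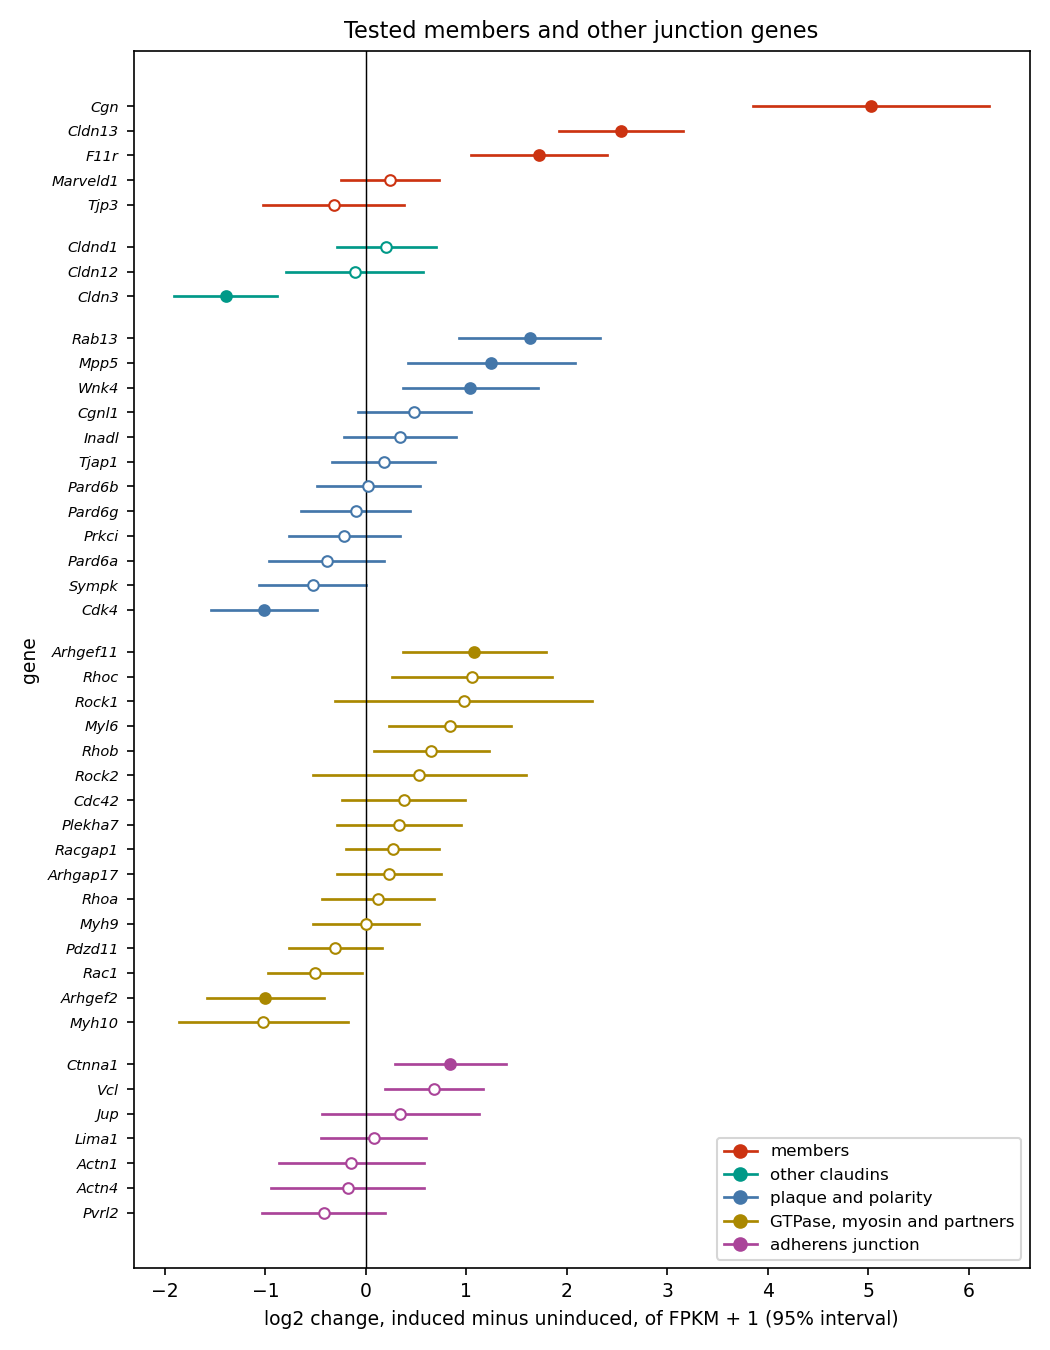
Log2 change of FPKM + 1, induced minus uninduced, with limma's 95% interval, for the 5 tested members and 38 of the 39 other tested junction genes by list. Filled symbols passed the adjusted p of 0.05; Cgn, Cldn13 and F11r are the filled members, and most other genes have intervals that include 0.

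Markers of tissues that carry tight junctions were mostly near 0. Of 11 epithelial markers 2 were tested and both were called lower, beside 14.7% of all loci. Besides Cldn3 this was Krt8, a keratin gene, which fell from 1.33 and 1.47 to 0.03 and 0.23 FPKM (limma adjusted p = 0.0236) and entered the test through its uninduced samples alone. Cldn3 alone of the 11 reached 1 FPKM in all samples; their sum was 28.6 and 25.7 FPKM uninduced and 9.84 and 8.69 FPKM induced, and without Cldn3 it was 0.42 to 2.37 FPKM. The epithelial cadherin gene Cdh1 was at 0.01 FPKM or less, Krt18 at 0.02 FPKM or less, Epcam at 0.38 FPKM or less, and Krt19 and Prom2 at 0 in all samples. The 9 endothelial markers summed to between 2.93 and 4.60 FPKM, with Vwf highest (1.34 and 1.02 against 2.92 and 3.05 FPKM) and Cdh5 at 0 throughout. Of the 2 tested, Vwf was called higher (limma adjusted p = 0.0386), beside 11.5% of all loci. Tek, which entered the test through its uninduced samples alone, did not pass (limma adjusted p = 0.0563). The fibroblast markers with a locus of their own, 5 of 7, summed to 0.96 FPKM or less, with Dcn and Lum at 0. Megakaryocyte markers, 5 of 7 with a locus of their own, summed to 202 and 334 FPKM uninduced and 112 and 145 FPKM induced. Nearly all of this was Pf4, and Ppbp, also a platelet chemokine gene, was at 0.24 FPKM or less. Of the 3 tested, 0 passed in limma, beside 26.2% of all loci (1 higher and 1 lower at an unadjusted p under 0.05). Pf4 stood at a limma adjusted p of 0.0631. Gp9 was higher in induced samples (2.28 and 2.89 against 5.05 and 4.41 FPKM). Gp1ba overlapped between groups, at 0.94 and 1.54 against 1.52 and 2.70 FPKM. The 11 erythroid markers were all tested and 8 rose, beside 11.5% of all loci. Of the 8, Slc4a1, the band 3 anion exchanger gene, entered the test through its induced samples alone (0.49 and 0.56 against 82.82 and 186.33 FPKM). Gata1, at 246.84 to 472.67 FPKM, was among the 3 that did not pass. Whether the sums that moved had a part in the changes of the members was not tested.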

How the data were processed

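RNA-seq of 2 uninduced and 2 DMSO-induced MEL samples was used as 1 deposited table with an FPKM column per sample. Per the submitters' processing notes the authors used TopHat2 and GRCm38; versions are not given in the sources used here, nor are the quantifier, annotation and strandedness. The unit FPKM was inferred from the Cufflinks-type columns per the file headers and from sums above those of CPM or TPM. Genes were matched by symbol to loci with 1 symbol; of several, the locus of highest mean FPKM stood for the gene, and loci shared by several genes were left out. Positions are from GENCODE M21, promoters and older symbols from RefSeq (GRCm38.p6).

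Loci that reached 1 FPKM in 2 or more samples were fitted as log2(FPKM + 1) with limma 3.58.1 in R 4.3.3 (trend, not robust, group only), adjusted by Benjamini-Hochberg over 12890 loci. The fit was run on data simulated from its own variances with normally distributed scatter, which checks the code and not how real FPKM values behave. Alternatives were 3 scalings, 2 filters, a pseudocount of 0.1, loci at 0 left out, a replicate block and leaving out each sample. The members and lists were chosen with earlier results of these data known. Named genes were all members, up to 5 called genes and the 2 most abundant of each list, the nearest profiles of Cgn and Cldn13, and the genes beside members; others were picked with their values known. Some genes and a sequence that these rules take in are not reported here.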

Additional observations from a re-analysis of the deposited data

How the results depend on the processing

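The direction of change of Cgn, Cldn13, F11r, Marveld1 and Tjp3 was the same under every setting run. With a sample left out it could not have differed, because the groups of these genes do not overlap. The other filters, the replicate block and the removal of loci at 0 leave the estimates themselves unchanged. Tjp3 has no value with a filter at 5 FPKM. Under the 3 other scalings, the filter at 5 FPKM, the pseudocount of 0.1, the replicate block and the removal of loci at 0, 3 members were called higher. These scalings moved the median change of all loci by -0.07 to 0.06. With no filter, limma called 87 loci higher and 133 lower, 0 members higher (4 at an unadjusted p under 0.05) and 1 lower, Tjp1, whose values of 0.01, 0.01, 0 and 0 FPKM have no spread within groups, and 1 other junction gene higher and 1 lower. With a sample left out, between 0 and 180 loci were called higher and between 14 and 306 lower, between 0 and 2 members higher (3 at an unadjusted p under 0.05 each time), and 0 other junction genes in either direction. Other junction genes called higher numbered 8 under quantile normalization, 3 under median-of-ratios scaling, 3 with the filter at 5 FPKM, which tests fewer loci, 1 with the pseudocount of 0.1 and 8 with the replicate block; for the rest the cause was not tested. Actn4, not called, went from -0.47 to 0.10 as samples were left out. The replicate numbers are not said to mark shared batches, and deviations of same-numbered samples correlated at 0.17. With replicate number as a block, 4238 loci were called against 3377, and Cgn stood at an adjusted p of 0.0117. The levels of Tjp1 and Marveld2, about 1 or 2 fragments, allow no comparison; Ocln was left out by the filter at 1 FPKM.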
